A study of Arabidopsis thaliana with 9 samples.

Results

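The nuclear photosynthesis genes followed here are 48 Arabidopsis thaliana loci chosen by gene family, of the 33602 loci in the count table. They comprise 4 genes of photosystem I light harvesting, 14 of photosystem II light harvesting, 12 of photosystem I subunits, 6 of photosystem II subunits, 3 of electron carriers, 5 of Rubisco and its activase and 4 of the Calvin cycle. The rule itself used no measured value, but the 48 members were chosen with earlier results of these data known. All 48 loci carry the expected symbol in the genome annotation, and all 48 passed the filter on low counts.

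The chloroplast makes some proteins of the photosynthetic machinery from its own genome and imports the others, which the nucleus encodes. Antenna proteins of the LHCA and LHCB families bind chlorophyll and pass light energy to photosystem I and photosystem II, and the PSA and PSB proteins build those photosystems. Plastocyanin and ferredoxin-NADP reductase carry the electrons onward, and Rubisco and the other Calvin cycle enzymes fix carbon dioxide. In seedlings these nuclear genes are known for high transcript levels and for induction by light.

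RNA was sequenced from whole seedlings, roots and shoots together, collected 6 days after stratified seeds were moved to 20 °C on diluted Murashige and Skoog medium. The 3 genotypes were the wild type Col-0 and the lines emb1579-1 and emb1579-3, both in the Col-0 background and named rsa1 in the sample titles, with 3 libraries each that the design text calls biological replicates. The study asked how EMB1579 acts on root growth genes, so photosynthesis was not its stated subject. The labels give neither the lesion nor the zygosity of either line, and the columns assigned to emb1579-3 were placed by elimination, because their prefix carries another number than the labels do.

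Of the 9 libraries, 8 held 24.1 to 37.5 M counts, of which 12.5 to 19.0 M lay in nuclear loci. Col-0 replicate 3 held 1.2 M counts, 398 of them in the 48 genes, and its highest correlation with another library was 0.12. It was left out, so Col-0 has n = 2 and each line n = 3. With it kept, 0 of the 48 genes were called in either line by edgeR, and their median log2 fold change turned from -0.24 to 0.32 in emb1579-1 and from -0.22 to 0.34 in emb1579-3. Col-0 replicate 2 also stood apart at the low end: of 5732 nuclear loci at 0 in the other 7 libraries, 4391 had counts there, with a median of 3. Each of the 48 genes had 387 to 204872 counts in each of the 8 libraries. Values are counts per M nuclear counts, on totals scaled between libraries (CPM), with SD over libraries, and fold changes are log2 values from edgeR's quasi-likelihood test with their standard error (SE). Adjusted p-values are Benjamini-Hochberg values over 20434 nuclear genes, and a gene is called higher or lower at an adjusted p under 0.05.

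EMB1579 (AT2G03150, TAIR10.1 chromosome 2 from 951888 to 959236, plus strand) gave 93.6 and 94.5 CPM in Col-0, 90.3, 94.2 and 92.0 CPM in emb1579-1, and 4.06, 2.08 and 2.17 CPM in emb1579-3. On the log2 scale emb1579-1 differed from Col-0 by -0.03 (SE 0.11, adjusted p = 0.898) and emb1579-3 by -5.07 (SE 0.15, adjusted p = 2.39e-12). The transcript level therefore does not separate the libraries labelled emb1579-1 from Col-0, and emb1579-1 here means the libraries so labelled.

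The 48 genes were abundant in every genotype. Per kilobase of exon, LHCB1.3 and LHCB1.5, genes of the trimeric antenna of photosystem II, had the highest mean levels over the 8 libraries, 8892.5 and 7665.4 CPM per kilobase. PSBR of photosystem II followed at 5377.6, then the Rubisco small subunit genes RBCS1A at 5347.6 and RBCS3B at 4252.8 CPM per kilobase. The lowest were RBCS1B at 139.3, the photosystem I gene PSAH1 at 122.9 and the minor antenna gene LHCB4.3 at 25.2 CPM per kilobase. Together the 48 genes held 12.1% and 11.0% of nuclear counts in Col-0, 10.7%, 10.2% and 9.92% in emb1579-1, and 10.2%, 10.9% and 9.83% in emb1579-3. These shares were lower in every mutant library than in Col-0. On scaled totals the sums of the 48 genes overlapped: Col-0 gave 125677.6 and 108645.1 CPM, and emb1579-1 replicate 1 with 109185.1 CPM and emb1579-3 replicate 2 with 110306.8 CPM lay above the lower of these.

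Of the 48 genes, more were called lower than higher in each mutant line, and the few called higher were antenna genes of photosystem II. In emb1579-1, 14 of 48 were called lower (29.2%) and 2 higher (4.17%), where 9.63% of all tested genes were called lower, 8.35% higher and 18.0% in either direction. In emb1579-3, 18 of 48 were called lower (37.5%) and 3 higher (6.25%), where 10.5% of all tested genes were called lower, 10% higher and 20.5% in either direction. Abundant genes are called more often: of the 1963 genes with a mean of at least 100 CPM, which include 47 of the 48, 14.5% were lower and 15.4% higher in emb1579-1, and 14.3% and 18.5% in emb1579-3. The changes were small. Log2 fold changes of the 48 ran from -0.48 to 0.55 with a median of -0.24 in emb1579-1, and from -0.63 to 0.52 with a median of -0.22 in emb1579-3, while the median over all tested genes was 0 in both.

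Library by library, every emb1579-1 value lay below both Col-0 values for 25 of the 48 genes (52.1%, against 22.9% of all tested genes) and above them for 3 (6.25%, against 21.9%). For emb1579-3 these numbers were 29 (60.4%, against 24.9%) and 5 (10.4%, against 24.1%). Of the genes of at least 100 CPM, 25% lay lower and 33% higher in this way in emb1579-1, and 27.8% and 35.2% in emb1579-3. Log2 fold changes were below 0 for 42 of the 48 genes in emb1579-1 (87.5%, against 49.6% of all tested and 44.8% of the abundant genes) and for 40 in emb1579-3 (83.3%, against 50.6% and 47.0%). The same 2 Col-0 libraries serve both comparisons. Of the 48 genes, 13 were called lower in both lines, 2 were called higher in both and 26 were called in neither.

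Within a genotype most of the 48 genes were high or low in the same library. Col-0 replicate 1 exceeded replicate 2 for 46 of the 48 genes, emb1579-1 replicate 1 was the highest of its line for 32, and emb1579-3 replicate 2 was the highest of its line for 40. The median coefficient of variation of the 48 was 9.37% in Col-0, 6.39% in emb1579-1 and 7.42% in emb1579-3. Without Col-0 replicate 1, only 7 genes were called lower in emb1579-1 and 4 in emb1579-3, with 2 and 3 higher. That is 14.6% and 8.33% of the 48 called lower, where the same fit called 13.6% and 13.5% of all genes lower, so the larger share of lower calls among the 48 was not seen in it. Their median log2 fold changes were then -0.13 and -0.12, in place of -0.24 and -0.22. Without Col-0 replicate 2, 19 and 21 were called lower (39.6% and 43.8%, against 6.75% and 8.09% of all genes) and 1 higher in each line, with medians of -0.32 in both. In these fits the lone Col-0 library is assumed to vary like the other groups. Whichever of the 8 libraries was left out, the lower calls of PSAF, LHCA3, PSBQ1, PETE2, FNR1 and GAPB in emb1579-1, those of PSAF, PSAN, PSAK and RBCS2B in emb1579-3, and the higher call of LHCB2.3 in both lines were kept.

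**Figure D1:**
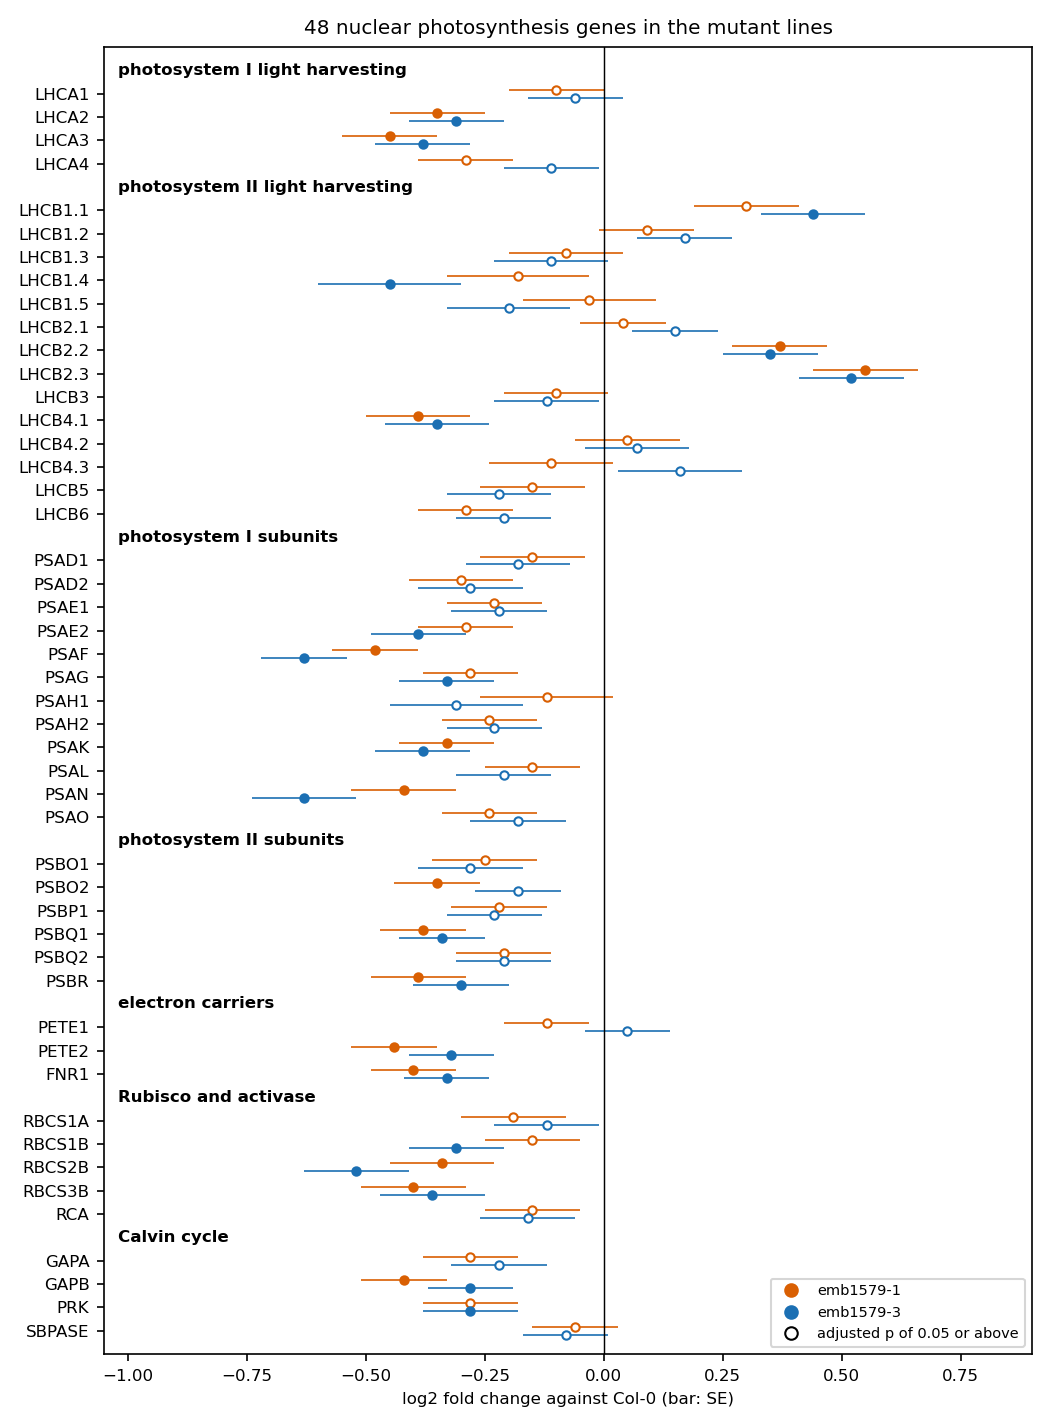
Log2 fold change of each of the 48 genes against Col-0 (horizontal axis) in emb1579-1 and emb1579-3, with bars of 1 SE and open points for an adjusted p of 0.05 or above. All 12 photosystem I subunit genes lie left of 0 in both lines, and the points farthest right are LHCB2.3 at 0.55 and 0.52.

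Other measured properties moved with the genotypes, and their part in these differences was not tested. The chloroplast's own genes took 33.7% and 33.5% of all counts in Col-0, 30.6%, 31.0% and 30.0% in emb1579-1, and 32.1%, 30.9% and 29.9% in emb1579-3. In whole seedlings, fewer green cells and less photosynthesis RNA per cell cannot be told apart. Of 11 shoot marker genes, 2 were higher and 0 lower in emb1579-1 and 1 higher and 0 lower in emb1579-3, and none was at 0 in any library. The summed level of the shoot markers, which rests mostly on the abundant ones, was 221.1 and 217.8 CPM in Col-0. It was 230.8 to 251.6 CPM in emb1579-1 and 225.5 to 256.2 CPM in emb1579-3. Of 8 root marker genes, 3 were lower and 0 higher in each line, namely the aquaporin gene TIP2;3, the root hair gene RHD2 and the Casparian strip gene CASP1. The RHD2 call in emb1579-3 was lost without Col-0 replicate 1 (log2 -0.43). The other 5 root markers were not called, and in emb1579-3 only 4 of the 8 lay below 0. The iron transporter gene IRT1 had log2 fold changes of -0.34 (SE 0.34, adjusted p = 0.577) in emb1579-1 and 0.95 (SE 0.32, adjusted p = 0.0927) in emb1579-3, the latter called without emb1579-1 replicate 1 (adjusted p = 0.00762). None of the 8 was at 0, and they summed to 146.2 and 128.5 CPM in Col-0, 86.6 to 118.8 CPM in emb1579-1 and 120.2 to 128.9 CPM in emb1579-3.

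Upstream sequence is shown for the LHCB2 genes called higher in both lines and for a gene called lower in both from each of 4 other classes. The 200 bases before the annotated gene start (RefSeq annotation of TAIR10.1, not a measured start) are given 5′ to 3′ on the gene's strand. They lie at chr2:1800473-1800672 (minus) for LHCB2.2, chr3:10255706-10255905 (plus) for LHCB2.3, chr1:11216142-11216341 (minus) for PSAF, chr4:11334152-11334351 (plus) for PSBQ1, chr1:7043393-7043592 (minus) for PETE2 and chr5:15382072-15382271 (minus) for RBCS2B. Capitals mark exact matches, on either strand, to the G-box CACGTG, to the I-box letters GATAAG and, as a form of the CCAAT element, to the letters CCAATC. A match on the opposite strand appears as its reverse complement.
LHCB2.2: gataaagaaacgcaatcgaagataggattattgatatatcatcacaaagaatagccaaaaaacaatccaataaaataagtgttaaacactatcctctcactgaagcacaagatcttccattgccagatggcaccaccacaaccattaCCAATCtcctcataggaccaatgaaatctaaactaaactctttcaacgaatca
LHCB2.3: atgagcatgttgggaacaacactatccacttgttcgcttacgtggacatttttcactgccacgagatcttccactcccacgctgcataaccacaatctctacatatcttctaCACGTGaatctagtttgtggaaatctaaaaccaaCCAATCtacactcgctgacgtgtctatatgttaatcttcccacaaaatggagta
PSAF: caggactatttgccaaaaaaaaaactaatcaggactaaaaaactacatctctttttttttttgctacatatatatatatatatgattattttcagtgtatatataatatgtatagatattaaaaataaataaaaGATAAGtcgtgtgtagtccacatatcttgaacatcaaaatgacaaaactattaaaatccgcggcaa
PSBQ1: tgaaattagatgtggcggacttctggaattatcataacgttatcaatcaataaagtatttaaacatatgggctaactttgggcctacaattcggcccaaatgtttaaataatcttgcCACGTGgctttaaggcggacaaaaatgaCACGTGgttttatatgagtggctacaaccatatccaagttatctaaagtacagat
PETE2: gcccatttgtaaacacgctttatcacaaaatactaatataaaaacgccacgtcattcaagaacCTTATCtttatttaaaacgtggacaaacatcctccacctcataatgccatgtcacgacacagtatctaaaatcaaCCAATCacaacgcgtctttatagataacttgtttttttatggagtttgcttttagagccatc
RBCS2B: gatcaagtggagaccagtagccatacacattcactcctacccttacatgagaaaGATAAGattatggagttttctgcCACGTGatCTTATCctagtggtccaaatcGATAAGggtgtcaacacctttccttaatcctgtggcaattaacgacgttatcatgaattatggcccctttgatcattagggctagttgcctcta

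Within 250 bases upstream, CACGTG was found at 10 of the 48 genes (20.8%), against 6.58% of 26711 nuclear protein-coding genes. The I-box letters were found at 13 (27.1%), against 12.2%, and CCAATC also at 13 (27.1%), against 10.2%. None of the 3 motifs contains another. CCAATC was found upstream of 3 of 4 LHCA and 7 of 14 LHCB genes and of 0 of 12 photosystem I subunit genes. Of the genes shown, CCAATC stood upstream of LHCB2.2 and LHCB2.3, which rose, and of PETE2, which fell, and CACGTG stood upstream of LHCB2.3, which rose, and of PSBQ1 and RBCS2B, which fell. The I-box letters stood upstream of PSAF, PETE2 and RBCS2B, which fell, and of neither LHCB2 gene shown. Of the other genes called lower in both lines, LHCA2, PSAN, PSBR, RBCS3B and GAPB had no match in their 200 bases. LHCA3, LHCB4.1, PSAK and FNR1 had a match there. These are letter matches and do not show a bound factor.

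The antenna of photosystem I was lower for LHCA2 and LHCA3 in both lines, while LHCA1 and LHCA4 were not called in either. LHCA2 and LHCA3 form an antenna dimer on the rim of the photosystem. LHCA3 (AT1G61520) gave 2739.6 and 2487.3 CPM in Col-0, 1870.3, 2009.4 and 1866.7 CPM in emb1579-1, and 2051.6, 2193.4 and 1780.8 CPM in emb1579-3. All 6 mutant libraries lay below both Col-0 libraries. It fell by 26.7% in emb1579-1 (log2 -0.45, SE 0.10, adjusted p = 0.0042) and by 23.1% in emb1579-3 (log2 -0.38, SE 0.10, adjusted p = 0.0116). LHCA2 (AT3G61470) gave 3393.8 and 2893.7 CPM in Col-0, 2500.8, 2464.8 and 2428.7 CPM in emb1579-1, and 2461.9, 2776.9 and 2385.5 CPM in emb1579-3. Again no mutant library reached the Col-0 values, and log2 fold changes were -0.35 (SE 0.10, adjusted p = 0.019) and -0.31 (SE 0.10, adjusted p = 0.0362). LHCA1 had -0.10 (adjusted p = 0.542) and -0.06 (adjusted p = 0.738), and LHCA4 -0.29 (adjusted p = 0.0564) and -0.11 (adjusted p = 0.499). Left without Col-0 replicate 1, LHCA2 was not called in either line (highest adjusted p over left-out libraries 0.225 and 0.367), nor LHCA3 in emb1579-3 (0.101). LHCA2 was also lost in both lines without emb1579-1 replicates 2 or 3, and in emb1579-3, together with LHCA3, without emb1579-3 replicate 3, and LHCA2 there also without emb1579-3 replicate 1.

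The antenna of photosystem II had calls in both directions. Of its 14 genes, 2 were called higher and 1 lower in emb1579-1, and 3 higher and 2 lower in emb1579-3, with class medians of -0.06 and -0.02 on the log2 scale. With 14 genes these counts lie near the shares of abundant genes given above, and nothing is read from their number. The summed level of the 14 genes was 46597.1 and 38016.8 CPM in Col-0, 39224.2 to 43424.2 CPM in emb1579-1 and 37737.7 to 44237.0 CPM in emb1579-3, so the groups overlapped. The genes called higher were copies with modest levels within their families.

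LHCB2 proteins, with LHCB1 and LHCB3, make up the trimeric antenna, and phosphorylation of LHCB2 is known for its place in state transitions, the redistribution of antenna between the photosystems. LHCB2.3 (AT3G27690) gave 371.6 and 313.8 CPM in Col-0, 497.4, 514.9 and 489.7 CPM in emb1579-1, and 462.3, 569.6 and 445.3 CPM in emb1579-3. Every mutant library lay above both Col-0 libraries. It rose by 46.1% in emb1579-1 (log2 0.55, SE 0.11, adjusted p = 0.00141) and by 43.7% in emb1579-3 (log2 0.52, SE 0.11, adjusted p = 0.00184). None of its 50-base windows occurs elsewhere in the genome, and the opposite-strand gene that overlaps it, AT3G27700, had a mean of 37.2 CPM and log2 fold changes of -0.14 (adjusted p = 0.332) and -0.13 (adjusted p = 0.354).

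LHCB2.2 (AT2G05070) gave 711.4 and 624.0 CPM in Col-0, 925.9, 861.3 and 800.6 CPM in emb1579-1, and 792.4, 943.2 and 824.6 CPM in emb1579-3. The mutant libraries again lay above Col-0 without overlap. It rose by 29.2% (log2 0.37, SE 0.10, adjusted p = 0.0154) and by 27.8% (log2 0.35, SE 0.10, adjusted p = 0.018). Without Col-0 replicate 2 neither call was made (highest adjusted p 0.164 and 0.176), nor that in emb1579-3 without emb1579-3 replicate 2. LHCB2.1, the most abundant copy, had 0.04 (adjusted p = 0.835) and 0.15 (adjusted p = 0.29). Of the 50-base windows of LHCB2.2, 29.5% occur elsewhere, and of those of LHCB2.1, 23.5%, so reads could be divided between these copies in a way the sources used here do not state.

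LHCB1.1 (AT1G29920) lies in a cluster of LHCB1 copies on chromosome 1. It gave 2264.9 and 2065.9 CPM in Col-0, 3015.0, 2473.5 and 2505.9 CPM in emb1579-1, and 2701.2, 3292.2 and 2810.0 CPM in emb1579-3. No mutant library fell to the Col-0 range. The log2 fold change was 0.30 in emb1579-1 (SE 0.11, adjusted p = 0.0743), which did not pass, and 0.44 in emb1579-3 (SE 0.11, adjusted p = 0.00954), where it rose by 35.5%. The difference between the lines was 0.14 (SE 0.10, adjusted p = 0.736). Leaving out Col-0 replicate 2 removed the call (adjusted p = 0.0865), and 20.5% of the gene's windows occur elsewhere.

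The other LHCB1 copies gave no higher call. LHCB1.4 (AT2G34430), shown because it was called lower while its groups overlapped, had 2224.2 and 1462.0 CPM in Col-0, 1684.1, 1606.9 and 1590.2 CPM in emb1579-1, and 1316.3, 1526.1 and 1217.7 CPM in emb1579-3. Its lower call in emb1579-3 (log2 -0.45, SE 0.15, adjusted p = 0.0472) came with Col-0 replicate 2 below emb1579-3 replicate 2. It was not called when any library other than Col-0 replicate 2 or emb1579-3 replicate 2 was left out (adjusted p up to 0.677). LHCB1.2, LHCB1.3 and LHCB1.5 had log2 fold changes from -0.20 to 0.17 and no call. As a description chosen after the values were seen, LHCB1.1 made up 7.36% and 8.55% of the summed level of 5 LHCB1 copies in Col-0, 9.47% to 10.3% in emb1579-1 and 10.9% to 11.3% in emb1579-3, and LHCB2.3 made up 13.3% and 13.2% of the 3 LHCB2 copies in Col-0, 16.6% to 17.1% in emb1579-1 and 14.9% to 17.2% in emb1579-3.

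Among the monomeric antenna genes, which link the trimers to the core, LHCB4.1 was lower and its copy LHCB4.2 was not called. LHCB4.1 (AT5G01530) gave 2436.5 and 2234.3 CPM in Col-0, 1850.0, 1852.2 and 1656.6 CPM in emb1579-1, and 1885.7, 2033.7 and 1576.6 CPM in emb1579-3. The mutant libraries all lay below Col-0. It fell by 23.5% (log2 -0.39, SE 0.11, adjusted p = 0.0163) and by 21.6% (log2 -0.35, SE 0.11, adjusted p = 0.026). Neither call was made without Col-0 replicate 1 (highest adjusted p 0.101 and 0.162), nor was that in emb1579-1 without its replicate 3 or that in emb1579-3 without its replicates 1 or 3. LHCB4.2 had log2 fold changes of 0.05 (adjusted p = 0.808) and 0.07 (adjusted p = 0.723). LHCB4.1 made up 66.4% and 67.5% of the summed level of these copies in Col-0, 58.1%, 61.5% and 59.9% in emb1579-1, and 62.4%, 59.3% and 58.7% in emb1579-3, with no overlap between Col-0 and the mutant libraries. LHCB3, LHCB4.3, LHCB5 and LHCB6 were not called in either line, with log2 fold changes from -0.29 to 0.16.

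**Figure D2:**
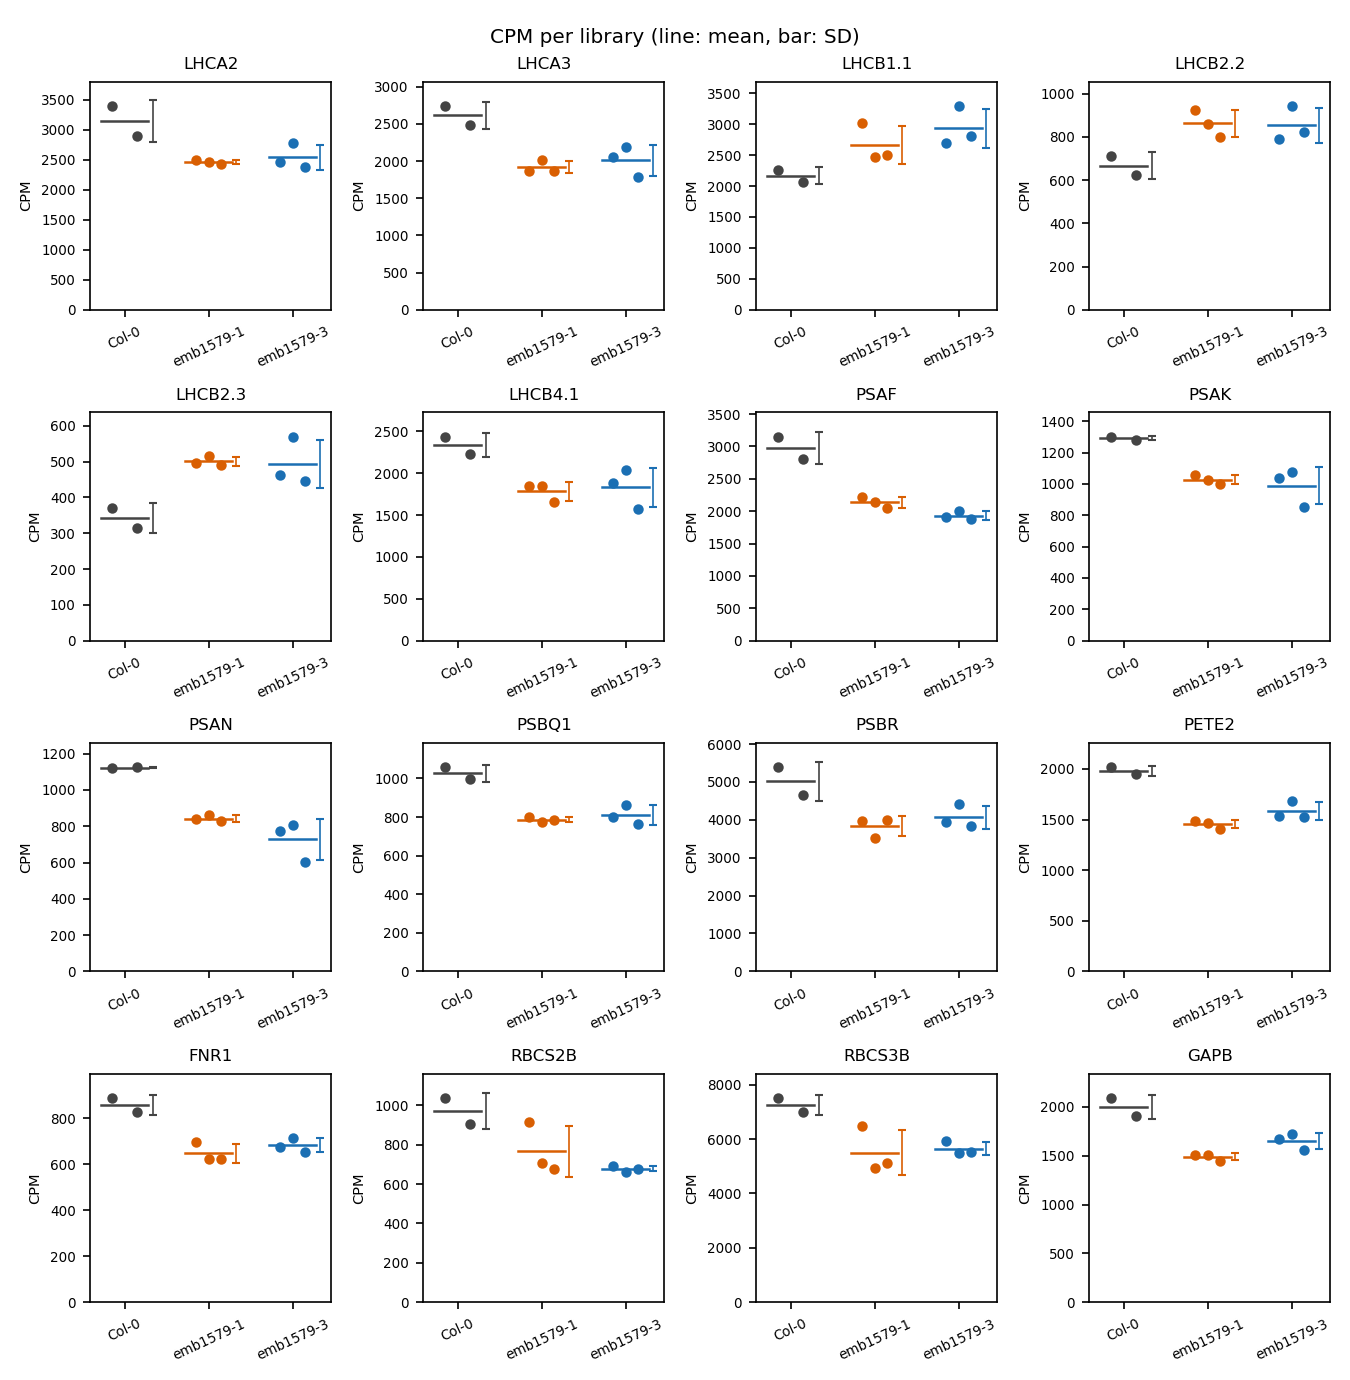
CPM of the 16 genes named by the rule (vertical axes from 0), 1 panel per gene, with points for libraries, lines for group means and bars for SD (Col-0 n = 2, each line n = 3). In LHCB2.2 and LHCB2.3 every mutant library lies above Col-0, and in PSAF, PSBQ1, PETE2 and GAPB every mutant library lies below it.

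The photosystem I subunit genes lay on the same side of Col-0. All 12 had log2 fold changes below 0 in both lines (49.6% and 50.6% of all tested genes had this), and 3 of 12 were called lower in emb1579-1 and 5 of 12 in emb1579-3. The shares of all tested genes called lower were 9.63% and 10.5%. Class medians were -0.26 and -0.30. Without Col-0 replicate 1, PSAH1 was above 0 in emb1579-1, at 0.09. PSAF (AT1G31330), the subunit at which plastocyanin docks, gave 3149.8 and 2803.9 CPM in Col-0, 2212.1, 2146.2 and 2050.4 CPM in emb1579-1, and 1902.3, 2005.2 and 1874.1 CPM in emb1579-3. The 3 groups did not overlap, with emb1579-3 lowest. It fell by 28.2% in emb1579-1 (log2 -0.48, SE 0.09, adjusted p = 0.00128) and by 35.3% in emb1579-3 (log2 -0.63, SE 0.09, adjusted p = 9.9e-05). The difference between the lines was -0.15 (SE 0.08, adjusted p = 0.628).

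PSAN (AT5G64040), a subunit on the lumenal side that also takes part in the reaction with plastocyanin, gave 1123.7 and 1124.1 CPM in Col-0, 837.7, 863.1 and 826.8 CPM in emb1579-1, and 772.8, 807.6 and 600.9 CPM in emb1579-3. The 3 groups were again separate, and emb1579-3 replicate 3 was the lowest library, but the lines were not called different (log2 -0.21, SE 0.10, adjusted p = 0.484). It fell by 25% (log2 -0.42, SE 0.11, adjusted p = 0.00986) and by 35.3% (log2 -0.63, SE 0.11, adjusted p = 0.000351). Without Col-0 replicate 2 the call in emb1579-1 was lost (adjusted p = 0.0507). The overlapping opposite-strand gene AT5G64030 had a mean of 112.8 CPM and was not called in either line.

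PSAK (AT1G30380), a subunit near the LHCA antenna, gave 1301.1 and 1282.3 CPM in Col-0, 1058.4, 1026.9 and 997.5 CPM in emb1579-1, and 1038.6, 1074.8 and 855.7 CPM in emb1579-3. No mutant library reached Col-0. Log2 fold changes were -0.33 (SE 0.10, adjusted p = 0.0249) and -0.38 (SE 0.10, adjusted p = 0.00926), and the first was lost without either Col-0 library or without emb1579-1 replicates 2 or 3 (adjusted p up to 0.0975). PSAE2, of the ferredoxin docking side, and PSAG, next to the antenna, were called in emb1579-3 with -0.39 (SE 0.10, adjusted p = 0.00952) and -0.33 (SE 0.10, adjusted p = 0.0179). Both of these calls were lost without Col-0 replicate 1 or emb1579-3 replicate 3 (adjusted p up to 0.196 and 0.249). In emb1579-1 the same genes had -0.29 (adjusted p = 0.054) and -0.28 (adjusted p = 0.0515). The other 7 genes (PSAD1, PSAD2, PSAE1, PSAH1, PSAH2, PSAL and PSAO) had log2 fold changes from -0.31 to -0.12 and no call.

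Photosystem II subunit genes were also below Col-0, all 6 in both lines, with 3 called lower in emb1579-1 and 2 in emb1579-3. The shares of all tested genes called lower were 9.63% and 10.5%, and those of the abundant genes 14.5% and 14.3%. PSBO, PSBP and PSBQ proteins shield the oxygen-evolving cluster of photosystem II, and PSBR is needed for stable binding of PSBP. PSBQ1 (AT4G21280) gave 1056.8 and 995.7 CPM in Col-0, 798.6, 775.4 and 785.0 CPM in emb1579-1, and 802.2, 863.4 and 765.3 CPM in emb1579-3. The mutant libraries lay below Col-0 without overlap. It fell by 23.4% (log2 -0.38, SE 0.09, adjusted p = 0.00443) and by 21.0% (log2 -0.34, SE 0.09, adjusted p = 0.00901), the second lost without Col-0 replicate 1 (adjusted p = 0.077). PSBR (AT1G79040) gave 5381.9 and 4655.9 CPM in Col-0, 3973.8, 3524.6 and 4000.4 CPM in emb1579-1, and 3939.4, 4411.9 and 3840.6 CPM in emb1579-3. It had no overlap either, with log2 fold changes of -0.39 (SE 0.10, adjusted p = 0.0135) and -0.30 (SE 0.10, adjusted p = 0.0457). Both PSBR calls were lost without Col-0 replicate 1 or emb1579-1 replicate 2 (adjusted p up to 0.14 and 0.362), and the second also without emb1579-1 replicate 3 or emb1579-3 replicates 1 or 3. PSBO2 was called lower in emb1579-1 with -0.35 (SE 0.09, adjusted p = 0.00905; 0.0516 without Col-0 replicate 1) and had -0.18 (adjusted p = 0.171) in emb1579-3. The difference between the lines for PSBO2 was 0.17 (SE 0.08, adjusted p = 0.504). PSBO1, PSBP1 and PSBQ2 had log2 fold changes from -0.28 to -0.21 and no call.

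The electron carriers PETE2 and FNR1 were lower in both lines. PETE2 (AT1G20340), the main plastocyanin copy, gave 2014.3 and 1944.9 CPM in Col-0, 1489.1, 1463.8 and 1411.0 CPM in emb1579-1, and 1534.9, 1682.2 and 1524.2 CPM in emb1579-3. The 3 groups were separate, with emb1579-1 lowest, but the lines were not called different (emb1579-3 against emb1579-1 log2 0.12, SE 0.08, adjusted p = 0.709). It fell by 26.5% in emb1579-1 (log2 -0.44, SE 0.09, adjusted p = 0.00174) and by 20.2% in emb1579-3 (log2 -0.32, SE 0.09, adjusted p = 0.0141), the second lost without Col-0 replicate 1 or emb1579-3 replicate 1 (adjusted p up to 0.0815). PETE1, the minor copy, had -0.12 (adjusted p = 0.367) and 0.05 (adjusted p = 0.757), and PETE2 made up 92.0% and 92.3% of the summed level of both copies in Col-0, against 89.7% to 90.6% in the 6 mutant libraries.

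FNR1 (AT5G66190), a leaf ferredoxin-NADP reductase, gave 886.8 and 825.7 CPM in Col-0, 694.8, 623.7 and 621.6 CPM in emb1579-1, and 675.6, 715.1 and 655.0 CPM in emb1579-3. All mutant libraries lay below Col-0. It fell by 24.5% (log2 -0.40, SE 0.09, adjusted p = 0.00343) and by 20.4% (log2 -0.33, SE 0.09, adjusted p = 0.0128), the second lost without Col-0 replicate 1 (adjusted p = 0.112).

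Of the Rubisco genes, RBCS2B and RBCS3B were called lower in both lines and RBCS1B in emb1579-3, whereas RBCS1A and the activase gene RCA were not called. These 3 called copies lie next to each other on chromosome 5, and 12% to 16.9% of their windows occur elsewhere, so their shares of reads are uncertain. RBCS3B (AT5G38410), the most abundant of them, gave 7507.3 and 6989.0 CPM in Col-0, 6467.0, 4922.3 and 5133.0 CPM in emb1579-1, and 5924.8, 5496.1 and 5531.8 CPM in emb1579-3. No mutant library reached Col-0, and emb1579-1 replicate 1 was the nearest. Log2 fold changes were -0.40 (SE 0.11, adjusted p = 0.0195) and -0.36 (SE 0.11, adjusted p = 0.031). Each of these calls was lost without Col-0 replicate 1, that in emb1579-1 also without its replicates 2 or 3, and that in emb1579-3 also without Col-0 replicate 2 or any library of its own (adjusted p up to 0.112 and 0.15).

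RBCS2B (AT5G38420) gave 1036.7 and 907.1 CPM in Col-0, 916.5, 708.9 and 678.6 CPM in emb1579-1, and 690.4, 663.9 and 678.2 CPM in emb1579-3. The emb1579-1 libraries overlapped Col-0 through replicate 1, and the emb1579-3 libraries did not. It fell by 30.3% in emb1579-3 (log2 -0.52, SE 0.11, adjusted p = 0.00302), while in emb1579-1 the value was -0.34 (SE 0.11, adjusted p = 0.0437), a call made in only 2 of the 8 fits that left out a library, those without Col-0 replicate 2 or emb1579-1 replicate 1 (adjusted p up to 0.285). RBCS1B had -0.15 (adjusted p = 0.311) and -0.31 (SE 0.10, adjusted p = 0.0313), the latter lost without either Col-0 library or any emb1579-3 library (adjusted p up to 0.194). RBCS1A, on chromosome 1 with no shared window, had -0.19 (adjusted p = 0.263) and -0.12 (adjusted p = 0.479), and RCA -0.15 (adjusted p = 0.358) and -0.16 (adjusted p = 0.302). RBCS1A made up 46.4% and 46.2% of the summed level of the 4 small subunit genes in Col-0, 49.0% to 50.9% in emb1579-1 and 50% to 51.6% in emb1579-3. Such shifts were not seen in every family. The shares of PSAD1, PSAE1, PSAH2 and PSBO1 within their pairs overlapped with Col-0 in a mutant line or in both. PSBQ2 did shift, with 51.6% and 51.2% of its pair in Col-0 and 52.0% to 56.2% in the mutant libraries.

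**Figure D3:**
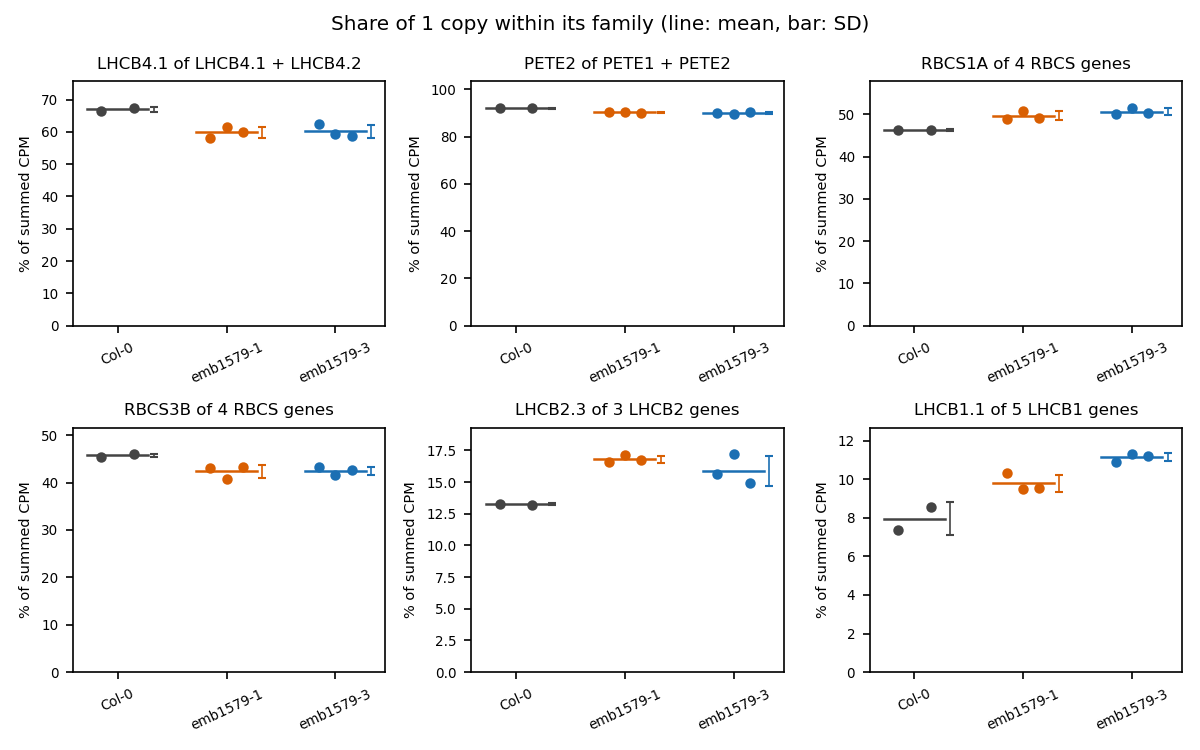
Percent of the summed CPM of a gene family held by the named copy (vertical axes from 0), with points for libraries, lines for group means and bars for SD (Col-0 n = 2, each line n = 3). LHCB4.1, PETE2 and RBCS3B hold a smaller share in every mutant library than in Col-0, and RBCS1A, LHCB2.3 and LHCB1.1 a larger one. Pairs whose shares overlapped, such as PSAD1 with PSAD2, are not drawn. PSBQ2 within its pair and LHCB2.2 within its family, with larger shares in every mutant library than in Col-0, are not drawn either.

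In the Calvin cycle, GAPB was called lower in both lines and PRK in emb1579-3. GAPB (AT1G42970), a subunit of the chloroplast glyceraldehyde-3-phosphate dehydrogenase, gave 2088.8 and 1909.4 CPM in Col-0, 1507.3, 1510.5 and 1450.2 CPM in emb1579-1, and 1668.9, 1720.1 and 1561.6 CPM in emb1579-3. The groups were separate, with emb1579-1 lowest, but the lines were not called different (emb1579-3 against emb1579-1 log2 0.15, SE 0.08, adjusted p = 0.618). It fell by 25.5% (log2 -0.42, SE 0.09, adjusted p = 0.00273) and by 17.5% (log2 -0.28, SE 0.09, adjusted p = 0.0364). The call in emb1579-3 was kept only without Col-0 replicate 2 or emb1579-1 replicate 1 (adjusted p up to 0.261 otherwise). PRK, phosphoribulokinase, had -0.28 in both lines (SE 0.10, adjusted p = 0.0528 and 0.0472), and its call was likewise kept only in those fits (adjusted p up to 0.464 otherwise). GAPA, the partner subunit of GAPB, had -0.28 (adjusted p = 0.0599) and -0.22 (adjusted p = 0.125), and SBPASE had -0.06 (adjusted p = 0.697) and -0.08 (adjusted p = 0.579).

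The proportions of the classes shifted from the photosystem I subunits toward the photosystem II antenna, a pattern noticed in the values and given without a test. Photosystem II antenna genes made up 37.1% and 35.0% of the summed level of the 48 genes in Col-0, 39.8% to 39.9% in emb1579-1, and 37.8% to 40.1% in emb1579-3. Photosystem I subunit genes made up 11.8% and 12.1% in Col-0, 11.1% to 11.3% in emb1579-1, and 10.6% to 11.0% in emb1579-3. For every 100 CPM of photosystem II antenna there were 31.9 and 34.7 CPM of photosystem I subunits in Col-0, 28.5, 28.2 and 27.7 CPM in emb1579-1, and 29.0, 26.4 and 27.5 CPM in emb1579-3. This ratio was lower in all 6 mutant libraries than in either Col-0 library and is unaffected by the scaling between libraries. Photosystem II subunits also held a smaller share in every mutant library, 12.1% to 12.6% against 13.2% and 13.3% in Col-0, as did the electron carriers, 2.14% to 2.40% against 2.45% and 2.70%. The shares of the photosystem I antenna, Rubisco and the Calvin cycle overlapped between Col-0 and at least 1 line.

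**Figure D4:**
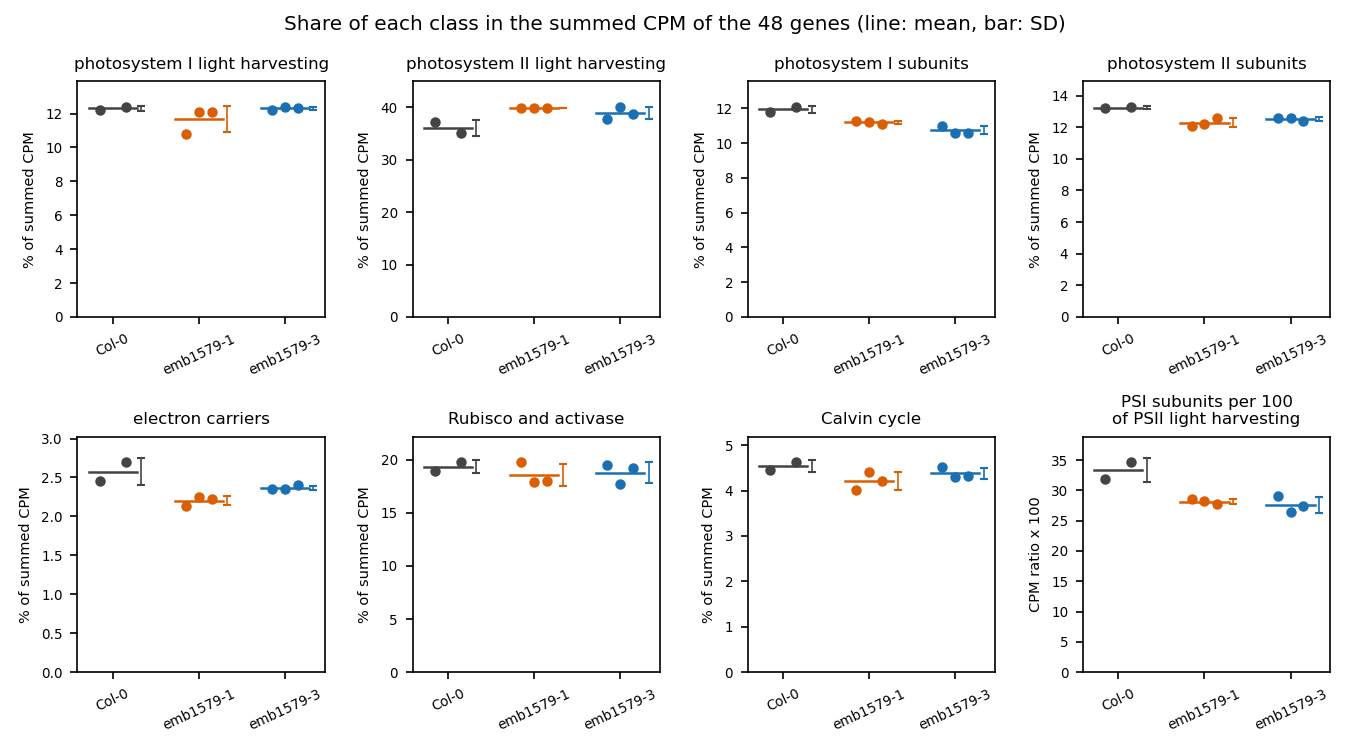
Percent of the summed CPM of the 48 genes held by each class, and the CPM ratio of photosystem I subunits to photosystem II antenna times 100 (vertical axes from 0), with points for libraries, lines for means and bars for SD (Col-0 n = 2, each line n = 3). The ratio lies at 31.9 and 34.7 in Col-0 and at 29.0 or below in the 6 mutant libraries.

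Between the mutant lines few of all tested genes were called, and none of the 48. In emb1579-3 against emb1579-1, 0 of the 48 were called by edgeR's quasi-likelihood test, where 0.866% of all tested genes were called (0.431% higher and 0.436% lower), and 4 had an unadjusted p under 0.05. DESeq2 also called 0. Libraries of the lines did not overlap for 6 genes higher in emb1579-3 (12.5%, against 7.22% of all tested genes) and 3 lower (6.25%, against 7.78%). Of the genes of at least 100 CPM, these shares were 9.48% and 10.7%. The 0 calls lie near the share of all tested genes, so nothing particular to the 48 is read from them. Log2 differences ran from -0.27 to 0.27 with SE of 0.08 to 0.13, and the smallest adjusted p was 0.478. For PSAF the 95% interval of the difference is -0.36 to 0.07, and for LHCB2.3 it is -0.27 to 0.22, so the data are compatible with differences within those bounds.

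Of 28 other nuclear genes of photosynthesis that are not among the 48, 16 were called lower and 0 higher in emb1579-1. In emb1579-3, 17 were called lower and 0 higher, and the median log2 fold change was -0.34 in each line. The shares called lower were 9.63% and 10.5% of all tested genes, and 14.5% and 14.3% of the genes of at least 100 CPM. These 28 genes were compared with the same 2 Col-0 libraries, so they are no independent check of the 48. LHCA5, an antenna protein that helps join photosystem I to the chloroplast NDH complex, gave 64.6 and 67.5 CPM in Col-0, 19.8, 20.7 and 22.2 CPM in emb1579-1, and 20.7, 27.0 and 19.4 CPM in emb1579-3. It fell by 68.4% (log2 -1.66, SE 0.11, adjusted p = 1.99e-08) and by 66.3% (log2 -1.57, SE 0.11, adjusted p = 3.62e-08), beyond the range of the 48, and it overlaps a gene on the opposite strand, AT1G45545. LHCA6, which shares that role and was picked after its values were seen, had -0.58 (SE 0.09, adjusted p = 0.000179) and -0.35 (SE 0.09, adjusted p = 0.00969).

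CP12-2, a small protein that binds the chloroplast glyceraldehyde-3-phosphate dehydrogenase and phosphoribulokinase, had log2 fold changes of -0.84 (SE 0.09, adjusted p = 2.51e-06) and -0.66 (SE 0.09, adjusted p = 3.28e-05). FNR2, the second leaf ferredoxin-NADP reductase, gave 1424.6 and 1342.6 CPM in Col-0, 895.5, 902.9 and 846.2 CPM in emb1579-1, and 981.5, 945.7 and 812.1 CPM in emb1579-3. All mutant libraries lay below Col-0, with log2 fold changes of -0.65 (SE 0.09, adjusted p = 8.99e-05) and -0.60 (SE 0.09, adjusted p = 0.000194), beside -0.40 and -0.33 for FNR1. FD2, the main leaf ferredoxin, gave 690.4 and 766.9 CPM in Col-0, 650.0, 591.8 and 512.4 CPM in emb1579-1, and 451.3, 454.0 and 413.0 CPM in emb1579-3. It fell by 19.8% in emb1579-1 (log2 -0.32, SE 0.10, adjusted p = 0.0322; up to 0.23 with a library left out) and by 39.7% in emb1579-3 (log2 -0.73, SE 0.10, adjusted p = 4.19e-05).

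Of 15 genes of chlorophyll synthesis, 2 were called higher and 1 lower in emb1579-1 and 2 higher and 0 lower in emb1579-3, counts near the shares of all tested genes. Log2 fold changes lay below 0 for 10 and 8 of the 15, with medians of -0.13 and -0.01, and the difference from the photosynthesis genes was not tested. GUN4, which stimulates magnesium chelatase, gave 91.3 and 81.7 CPM in Col-0, 116.3, 114.9 and 121.4 CPM in emb1579-1, and 120.5, 127.0 and 120.9 CPM in emb1579-3. It rose by 35.9% (log2 0.44, SE 0.08, adjusted p = 0.000864) and by 42.0% (log2 0.51, SE 0.08, adjusted p = 0.00024), with no overlap. CAO, the enzyme that makes the chlorophyll b bound by antenna proteins, rose by 26.4% (log2 0.34, SE 0.08, adjusted p = 0.0085; 0.139 without Col-0 replicate 2) and by 35.0% (log2 0.43, SE 0.08, adjusted p = 0.00123). DVR, a divinyl reductase of the pathway, had -0.37 (SE 0.08, adjusted p = 0.00445; 0.0577 without Col-0 replicate 2) and -0.16 (SE 0.08, adjusted p = 0.21), and the methyltransferase gene CHLM had -0.24 (adjusted p = 0.0631) and -0.17 (adjusted p = 0.2). GUN4, CAO and CHLM overlap opposite-strand genes.

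Among 23 regulators of light responses and plastid transcription, 3 were called higher and 6 lower in each line. Of all tested genes, 8.35% were called higher and 9.63% lower in emb1579-1, and 10% and 10.5% in emb1579-3. Log2 fold changes lay below 0 for 12 and 15 of the 23, with a median of -0.12 in each line. Whether the list differs from other genes was not tested. HY5, a bZIP factor that promotes light-dependent development, gave 18.3 and 17.8 CPM in Col-0, 9.88, 10.3 and 9.94 CPM in emb1579-1, and 12, 11.6 and 10.9 CPM in emb1579-3. It fell by 44.2% (log2 -0.84, SE 0.12, adjusted p = 8e-05) and by 36.2% (log2 -0.65, SE 0.12, adjusted p = 0.000742). BBX21, a B-box protein acting with HY5, had -0.47 (SE 0.12, adjusted p = 0.0116; up to 0.0924 with a library left out) and -0.92 (SE 0.12, adjusted p = 3.67e-05).

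PIF3 and PIF5, bHLH factors that restrain greening and light responses, were higher, while PIF1 and PIF4 of the same list were not called higher in either line. PIF3 gave 12.5 and 11.5 CPM in Col-0, 24, 21.9 and 20 CPM in emb1579-1, and 22.0, 17.7 and 21.8 CPM in emb1579-3, with log2 fold changes of 0.88 (SE 0.13, adjusted p = 0.000103) and 0.78 (SE 0.13, adjusted p = 0.000292). PIF5 had 0.42 (SE 0.08, adjusted p = 0.0016) and 0.51 (SE 0.08, adjusted p = 0.000276). GLK2, an activator of nuclear photosynthesis genes, had 0.48 (SE 0.12, adjusted p = 0.0127) and 0.37 (SE 0.12, adjusted p = 0.0422), and its relative GLK1 0.15 (adjusted p = 0.444) and 0.23 (adjusted p = 0.203). The sigma factor genes SIG2, SIG5 and SIG6, whose proteins guide the plastid RNA polymerase, were lower in both lines, SIG5 with -0.56 (SE 0.12, adjusted p = 0.00223) and -0.44 (SE 0.12, adjusted p = 0.0102). GLK1, GLK2 and these SIG genes were picked from the list after their values were seen, and their calls were not recomputed with libraries left out. Values of SIG1, SIG3 and SIG4, also on the list, are not given here.

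**Figure D5:**
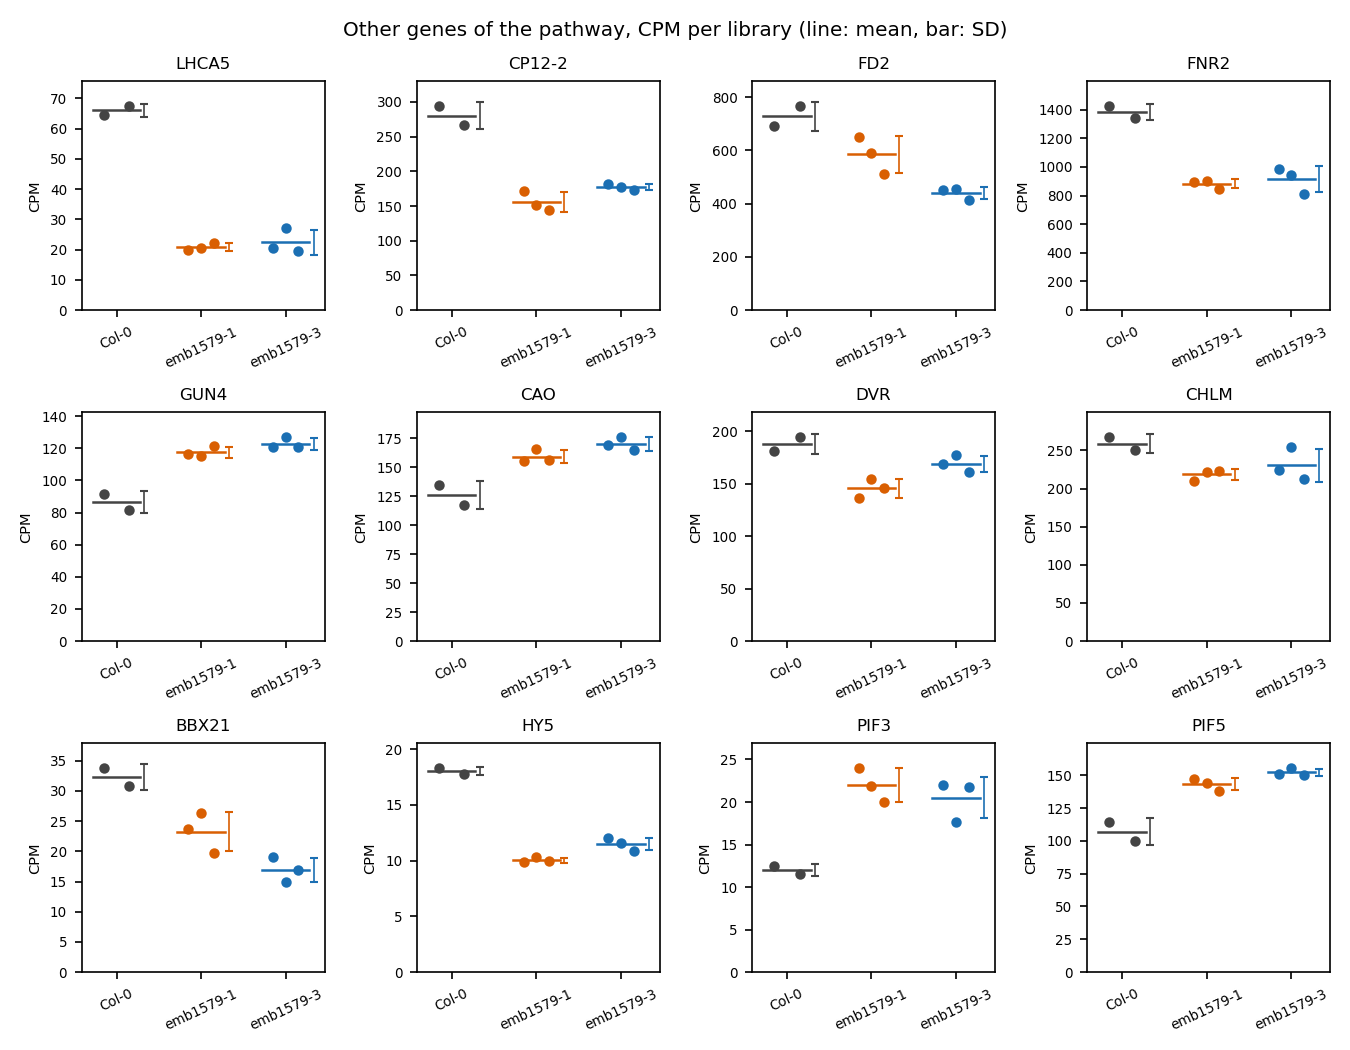
CPM of 12 genes of photosynthesis, chlorophyll synthesis and their regulation outside the 48 (vertical axes from 0), with points for libraries, lines for group means and bars for SD (Col-0 n = 2, each line n = 3). LHCA5, CP12-2, FNR2 and HY5 lie lower and GUN4, CAO, PIF3 and PIF5 higher in every mutant library than in Col-0.

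Reads of a member can be confused with those of another gene in 2 ways here. Of the 48, 19 overlap another counted gene, but the member's mean level was 6.07 to 2444.6 times that of each such neighbour. At 11 of the 48, 10.6% to 29.5% of the 50-base windows occur elsewhere in the genome, which touches LHCA2, the LHCB1 copies, LHCB2.1, LHCB2.2 and the RBCS genes of chromosome 5. The values of these 11 are uncertain between copies. PSAF, PSAK, PSAN, PSBQ1, PSBR, PETE2, FNR1, GAPB, LHCA3, LHCB4.1 and LHCB2.3 have no such window.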

How the data were processed

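The values are raw read counts per locus, deposited by the authors for whole-seedling RNA libraries of Col-0, emb1579-1 and emb1579-3. FastQC, HISAT2, Cufflinks, Cuffdiff and the build TAIR10 are named per the submitters' processing notes, with the counting tool and strand setting not given in the sources used here. All sample columns were used apart from Col-0 replicate 3, so 0 were unassigned. The 3 columns taken as emb1579-3 carry another stock number than the labels and were placed by elimination, with replicate numbers from the column names.

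Counts of 33323 nuclear loci were tested with edgeR 4.0.16 (limma 3.58.1, R 4.3.3) by the quasi-likelihood test with robust dispersion, TMM factors and edgeR's default filter on low counts, which left 20434 genes. The 8 libraries shared 1 fit with genotype as the only term and 5 residual degrees of freedom, a common biological coefficient of variation of 0.0884, and Benjamini-Hochberg adjustment over all genes tested. SE was computed as the size of the log2 fold change over the root of F. CPM uses TMM-scaled nuclear totals, 12.5 to 19.0 M counts per library. The fit was tested on simulated counts, with changes larger than most of those of the members and no library effects shared between genes. That test does not cover changes of the members' size. The labels call the replicates biological without saying how they were grown, so p-values measure the spread between these libraries, which may be partly technical.

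Positions, exon lengths, gene overlap, repeated 50-base windows and upstream sequence came from TAIR10.1 with its RefSeq annotation, matched by locus. The count table holds no coordinates. Members described library by library were those called in the same direction in both lines, those called between the lines and those called higher in either line. Of the other lists, up to 4 genes each with the smallest adjusted p are named. The 48 members and the other lists were chosen with earlier results of these data known. Alternatives were DESeq2 1.42.0 as test or for size factors, no filter or a filter of 10 CPM in 3 libraries, organelle loci kept, Col-0 replicate 3 kept, each library left out, a replicate block, fits of only the compared genotypes and, chosen after seeing the data, TMM without the 48 genes.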

Additional observations from a re-analysis of the deposited data

Results flagged for a closer look

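EMB1579 differed between the mutant lines, with a log2 fold change of -5.04 in emb1579-3 against emb1579-1 (SE 0.14, adjusted p = 7.33e-13 by edgeR's quasi-likelihood test), and every emb1579-3 library lay below every emb1579-1 library.

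FD2, the main leaf ferredoxin gene and no member of the 48, was also lower in emb1579-3 than in emb1579-1, by a log2 fold change of -0.41 (SE 0.09, adjusted p = 0.0331 by the same test), again with no overlap between the libraries. That call was lost without emb1579-1 replicates 1 or 2 (adjusted p = 0.0526 and 0.147) and without emb1579-3 replicates 1, 2 or 3 (adjusted p = 0.0994, 0.0908 and 0.187).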

How the results depend on the processing

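Of 1632 member log2 fold changes against Col-0 under the alternatives, 104 had another sign than the reported value. Of these, 30 were called values and 50 uncalled ones with Col-0 replicate 3 kept, 23 were uncalled ones with a library left out, 13 of them without Col-0 replicate 1, and 1 was an uncalled one under another alternative. With Col-0 replicate 3 kept, 0 members and 0 of the other pathway genes were called in either direction in either line and 0 of the latter were lower between the lines. In emb1579-1 the log2 fold changes were then 0.22 for LHCA2, 0.11 for LHCA3, 0.18 for LHCB4.1, 0.09 for PSAF, 0.24 for PSAK, 0.14 for PSAN, 0.21 for PSBO2, 0.17 for PSBQ1, 0.17 for PSBR, 0.13 for PETE2, 0.05 for FNR1, 0.22 for RBCS2B, 0.18 for RBCS3B and 0.15 for GAPB, with 0.14 for FD2 and 0.08 for DVR outside the 48. In emb1579-3 they were 0.27 for LHCA2, 0.18 for LHCA3, 0.13 for LHCB1.4, 0.22 for LHCB4.1, 0.06 for PSAE2, 0.19 for PSAG, 0.19 for PSAK, 0.22 for PSBQ1, 0.26 for PSBR, 0.25 for PETE2, 0.13 for FNR1, 0.25 for RBCS1B, 0.04 for RBCS2B, 0.22 for RBCS3B, 0.30 for GAPB and 0.27 for PRK. These member values had SE of 0.65 to 1.45 and adjusted p of 0.953 to 0.997 by edgeR's quasi-likelihood test, so none can be told from 0. EMB1579 between the lines was then -5.05 (adjusted p = 0.096). Of all tested genes, 114 and 140 were called against Col-0, in place of 3674 and 4196, and 2 between the lines in place of 177. That fit adds a library of 0.4 M nuclear counts to Col-0, and the cause was not tested.

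With 1 library left out in turn, 7 to 20 members were called lower and 1 to 2 higher in emb1579-1, and 4 to 21 lower and 1 to 3 higher in emb1579-3. Of the other pathway genes, 13 to 29 were lower and 3 to 5 higher in emb1579-1, 12 to 27 were lower in emb1579-3, and 0 to 1 were lower and 0 to 1 higher between the lines. The photosystem I antenna sum in emb1579-1 ran from -0.36 to -0.18 on the log2 scale. Without the filter, 1 member and 2 other pathway genes were lower between the lines. Genes of all tested called between the lines numbered 274 with DESeq2, 584 without the filter and 64 to 370 with a library left out.

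Deviations of same-numbered libraries from their group means had correlations of 0.236 and 0.169 for emb1579-1 with Col-0, and 0.041 and -0.152 for emb1579-3 with Col-0. Between the lines they were 0.105, -0.007 and 0.246. Pairs with different numbers ran from -0.259 to 0.178. With 2 Col-0 libraries, the values of each mutant library against Col-0 mirror each other. Whether the numbers pair the libraries is not settled by these values. The replicate block called 3 members higher and 15 lower in emb1579-1, 3 and 12 in emb1579-3, and 0 between the lines. With the block, LHCA2, LHCB1.4, PSBR, RBCS1B, GAPB and PRK lost their lower calls in emb1579-3. Of all genes, the block called 3596, 3857 and 256. Depth was no limit for the members, but 2 Col-0 libraries were.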
